A study of Mus musculus with 10 samples.

Results

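The DNA replication machinery considered here is a set of 45 genes taken by name, and all 45 were found among the 23420 gene rows of the deposited counts. It runs from the proteins that mark and license replication origins, through the MCM2-7 helicase and its activators, to the DNA polymerases, the sliding clamp and its loader, the enzymes that join Okazaki fragments, the single-strand binding protein RPA, and the enzymes that make deoxynucleotides. The libraries compared were 5 labelled Ino80cKO, with a testis-specific deletion of Ino80 made with Stra8-Cre, and 5 labelled Ino80WT. All were described as polyA RNA of spermatogenic cells from testes of mice at postnatal day 18, of mixed strain background. Markers of Sertoli and other somatic cells were also counted in them, as given below. Stra8-Cre acts in male germ cells from the spermatogonial stage on, and the labels do not say which part of Ino80 is deleted. Nor do they tie each library to a separate animal: the p-values rest on the spread among libraries, which may be technical.

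Before a cell copies its DNA, the origin recognition complex (ORC), CDC6 and CDT1 load rings of MCM2-7 onto origins, and geminin blocks CDT1 so that no origin is loaded again in the same cycle. The kinase CDC7, together with CDC45 and the GINS complex, turns the loaded ring into an active helicase, and polymerase alpha-primase, polymerase delta and polymerase epsilon then make the new strands on a PCNA clamp placed by the RFC loader. In the testis these genes are used in the mitotic divisions of spermatogonia and in the last S phase before meiosis, in preleptotene spermatocytes. RPA and several polymerases also act in DNA repair and in meiotic recombination.

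Counts per library ran from 16750609 to 23700094, and the 45 genes together took 0.315% to 0.377% of them in Ino80cKO and 0.336% to 0.363% in Ino80WT. The level of Ino80 itself ranged over 94.5 to 97.5 CPM in Ino80cKO and 75.8 to 110.1 CPM in Ino80WT (± is SD beside CPM and SE beside log2 fold changes throughout, n = 5 libraries each; log2 fold change 0.02 ± 0.09, adjusted p = 0.889), and the fold lay within 0.887 to 1.15 at 95% confidence. A count over the whole gene does not check the deletion where other exons remain. Germ cell markers moved with the labels. The summed level of 15 pachytene markers was 1373 to 2393 CPM in Ino80cKO and 3813 to 6731 CPM in Ino80WT, with all 15 lower, and that of 11 early prophase markers was 2139.6 to 2585 CPM in Ino80cKO and 2685 to 3945 CPM in Ino80WT, with 7 lower and 1 higher. Among 10 markers of differentiating spermatogonia, 3 were higher and 3 lower, and their sum was 1080.5 to 1266 CPM in Ino80cKO and 964 to 1321 CPM in Ino80WT. Of 12 Sertoli markers 5 were higher and none lower, with sums of 4383 to 5778 CPM in Ino80cKO and 2994 to 4558 CPM in Ino80WT, and of 8 macrophage markers 5 were higher, with sums of 75.7 to 117 CPM in Ino80cKO and 56.2 to 80.8 CPM in Ino80WT. Some markers were also higher for undifferentiated spermatogonia (4 of 14 tested, 1 lower), Leydig cells (3 of 6) and peritubular myoid cells (2 of 6). The summed levels of these lists overlapped between the groups, and none of 6 endothelial markers passed. For comparison, 18.3% of all genes tested were higher and 27.6% lower at an adjusted p below 0.05. The spermatid markers Prm1, Prm2 and Tnp2 had 0 counts in every library. In bulk RNA, fewer cells of a type and less RNA per cell cannot be told apart, and the part of these shifts in the results below was not tested.

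Replication transcripts were lower in Ino80cKO more often than higher, by less than 2-fold in each case. At an adjusted p below 0.05 (edgeR's quasi-likelihood test, Benjamini-Hochberg adjustment over 15265 genes), 25 of the 45 changed, 21 lower and 4 higher, and 20 did not pass. That is 55.6% of the members, against 45.9% of all genes tested. The 21 lower members are 46.7%, against 27.6% of all genes, and the 4 higher ones are 8.89%, against 18.3%. No test was made of these shares, and the members were chosen with earlier results of these data known. All 45 passed the filter on low counts. The median log2 fold change (Ino80cKO over Ino80WT) was -0.18 over the members and 0.02 over all genes tested. Over all genes, 1179 fell and 113 rose 2-fold or more. The extremes were Gins1, at -0.73, and Mcm5, at 0.32. Levels are in CPM, the count of a gene relative to its library's total after TMM scaling. No CPM value overlapped between the groups for 16 members lower in Ino80cKO, 35.6% against 22.0% of all genes, and for 3 members higher in it, 6.67% against 9.96%.

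**Figure D1:**
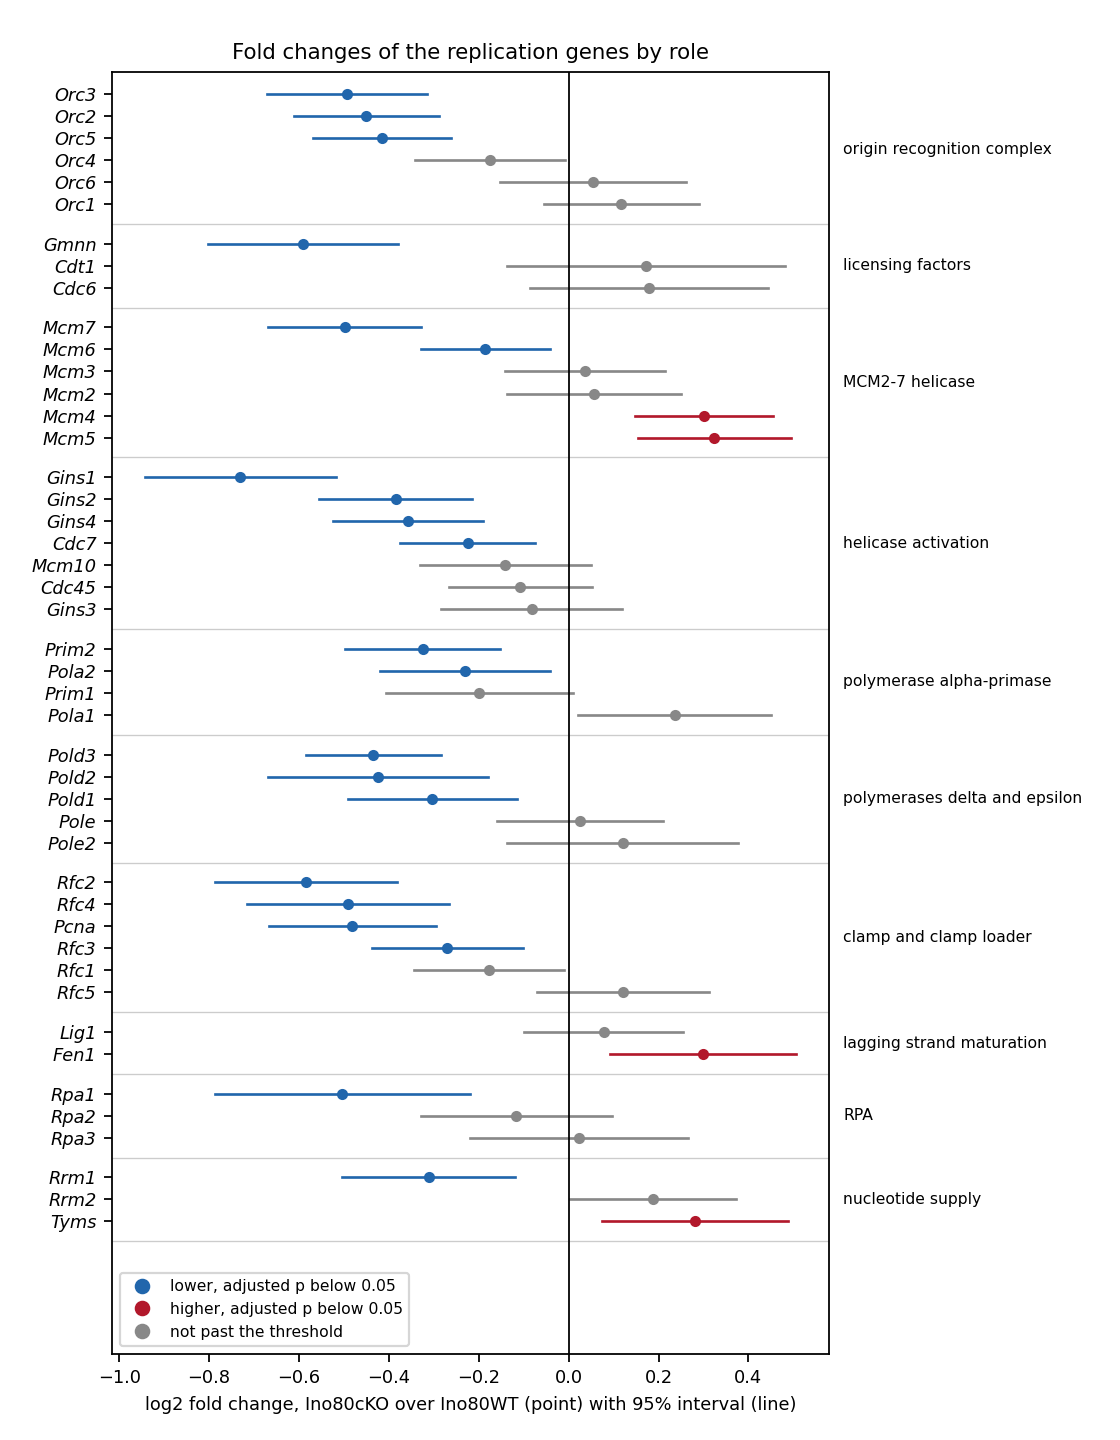
Log2 fold change of each of the 45 genes, Ino80cKO over Ino80WT, on the horizontal axis (points) with its 95% interval (lines), grouped by role; 5 libraries a group. Blue marks the 21 genes lower and red the 4 genes higher at an adjusted p below 0.05, and Gins1 lies farthest to the left at -0.73.

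The scaling between libraries sets where 0 lies. TMM factors were 1.05 to 1.09 in Ino80cKO and 0.895 to 1.01 in Ino80WT. With library totals in their place, the median of all genes moved to 0.19, the median of the members moved to 0.00, and 13 members were lower and 10 higher. Those are 28.9% and 22.2% of the members, against 19.2% of all genes lower and 35.9% higher. So 56.5% of the members' calls were lower by totals in place of 84%, and over all genes 34.9% in place of 60.2%. Relative to the median of all genes, the members' median was -0.19 under either scaling. A change of scaling moves all genes by nearly the same amount, so these values had to be close and add no support. The 13 genes lower under both scalings were Orc2, Orc3, Orc5, Gmnn, Mcm7, Gins1, Gins2, Gins4, Pold3, Pcna, Rfc2, Rfc4 and Rpa1. These kept their call in all 18 alternative settings, as did Mcm4 and Mcm5 among the 4 higher genes.

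**Figure D2:**
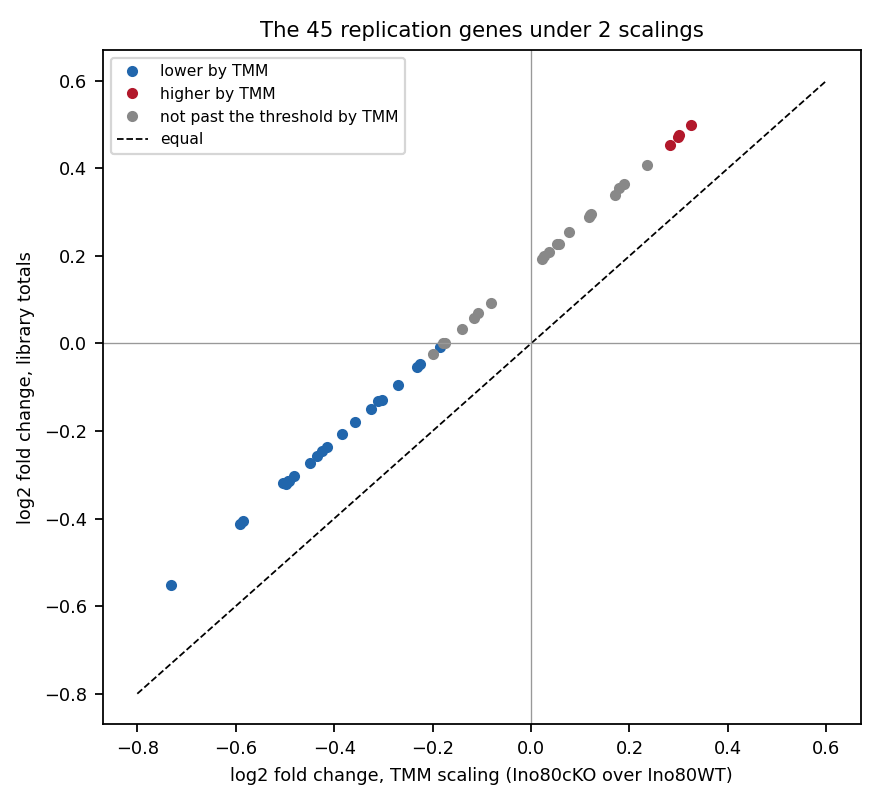
Log2 fold changes (Ino80cKO over Ino80WT) of the 45 genes with library totals (vertical axis) against those with TMM factors (horizontal axis); each point is a gene, and the dashed line marks equal values. All points lie above the line, and the median is 0.00 by totals and -0.18 by TMM.

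Many replication genes are known targets of E2F factors, and the letters of the E2F site were looked for in the promoters, to show what the members share in sequence. RefSeq windows of 250 bases before to 50 bases after a start site (GRCm38.p6, the same assembly as mm10) were matched by symbol for 37 of the 45 members, all but Gmnn, Mcm4, Gins1, Gins2, Gins4, Prim2, Pole and Rfc2. For 32 of the 37 matched members, bases just after the start occur in a GENCODE M21 transcript of the gene. That does not show that a transcript starts there. The letters TTTCCCGC, TTTGGCGC, TTTCGCGC and TTTGCCGC, on either strand, occurred in 15 of these 37 (40.5%) and in 704 of 27025 genes in the table (2.60%). Among members with a window, they occurred in 6 of 15 lower in Ino80cKO (40.0%), in 1 of 3 higher and in 8 of 19 that did not pass (42.1%). The lower members without a window were Gmnn, Gins1, Gins2, Gins4, Prim2 and Rfc2, so the largest fall, that of Gins1, is left out. No test was made of these shares. For comparison, CCAAT occurred in 62.2% of the members and 41.1% of all genes, and TTTGAA or TTCGAA, the letters of the cell cycle genes homology region, in 21.6% of the members and 21.7% of all genes. A match is a description of the letters, not of binding. The 19 places, before or after the RefSeq start, are shown with up to 8 bases on either side, read along the gene, and capitals mark the E2F letters, with overlapping matches merged. They were chosen by their letters after the windows had been searched. Where a gene has several windows, all were searched. The place in Lig1, unlike the others, lies outside the window nearest the start of its gene.
Orc1, before the start, chr4:108579419-108579442, plus strand: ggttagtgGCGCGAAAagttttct
Orc3, before the start, chr4:34614968-34614991, minus strand: tgcctcccTTTCCCGCacgccccg
Cdc6, before the start, chr11:98908005-98908028, plus strand: ggtggagaGCGGGAAAtcgcctgg
Cdt1, after the start, chr8:122568039-122568062, plus strand: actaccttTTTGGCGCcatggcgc
Mcm3, after the start, chr1:20820278-20820301, minus strand: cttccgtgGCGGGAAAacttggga
Mcm3, after the start, chr1:20820263-20820282, minus strand: tgggaagtTTTGGCGCcaag
Mcm5, before the start, chr8:75109348-75109375, plus strand: ccaagaacTTTCGCGCCAAAacgtccag
Mcm6, before the start, chr1:128359796-128359823, minus strand: cgtatgctTTTGGCGCGAAAagtgcgtg
Mcm6, before the start, chr1:128359737-128359760, minus strand: tggacgggTTTGGCGCgaagtagc
Mcm7, before the start, chr5:138172033-138172056, minus strand: ttcgaaccGCGGGAAAcagggtgt
Mcm7, after the start, chr5:138171852-138171875, minus strand: tgacgacgTTTCGCGCcaatttcg
Gins3, before the start, chr8:95633510-95633533, plus strand: agtgcggcGCGGGAAAgcgagttt
Pola1, before the start, chrX:93632278-93632301, minus strand: atcacaggGCGCCAAAtgcactcc
Pold1, after the start, chr7:44548766-44548784, minus strand: atcttgtgGCGGGAAAagc
Pold3, after the start, chr7:100121470-100121493, minus strand: cgaagctgTTTCCCGCcggcggga
Pole2, after the start, chr12:69228165-69228188, minus strand: cggcggtgGCGCCAAAtcgcgaac
Rfc3, before the start, chr5:151651203-151651226, minus strand: tcgcacgcTTTCGCGCtcgcggga
Rfc3, after the start, chr5:151651193-151651216, minus strand: tcgcgctcGCGGGAAAactctact
Lig1, after the start, chr7:13278844-13278867, plus strand: caaagtgcGCGCGAAAtctgtgtg

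Mcm7 and Mcm5 code for subunits of 1 ring, yet their transcripts moved in opposite directions. The 250 bases before the start site of each are shown, with E2F letters in capitals. Both hold such letters because the genes were picked among members that do. The Mcm5 promoter holds a pair of overlapping matches, on opposite strands.
Mcm7, chr5:138171884-138172133, minus strand: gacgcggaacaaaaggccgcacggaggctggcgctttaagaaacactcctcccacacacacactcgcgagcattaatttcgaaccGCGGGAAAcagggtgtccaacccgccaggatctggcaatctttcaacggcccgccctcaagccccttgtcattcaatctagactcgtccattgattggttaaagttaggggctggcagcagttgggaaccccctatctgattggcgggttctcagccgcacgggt
Mcm5, chr8:75109259-75109508, plus strand: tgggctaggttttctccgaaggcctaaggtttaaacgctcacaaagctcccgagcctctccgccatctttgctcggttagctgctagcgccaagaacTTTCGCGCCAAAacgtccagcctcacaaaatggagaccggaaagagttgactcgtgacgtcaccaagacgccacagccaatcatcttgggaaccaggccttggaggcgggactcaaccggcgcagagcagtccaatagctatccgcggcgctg

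Gene positions below are from GENCODE M21 (mm10). In the origin recognition complex, 3 of 6 subunits were lower and 3 did not pass. Orc2 (chr1:58462771-58505109, minus strand), a core subunit, had 113, 116, 97.6, 111 and 116 CPM in Ino80cKO libraries 1 to 5, against 140.2, 141, 159, 149.9 and 167 CPM in Ino80WT libraries 1 to 5. Its Ino80cKO values were all lower than its Ino80WT values, and it fell 1.37-fold (log2 fold change -0.45 ± 0.07, adjusted p = 0.000489; exact two-sided permutation test of CPM, p = 0.00794, the smallest that the 252 assignments of the libraries allow). Orc3 (chr4:34570796-34614944, minus strand) had 76.0, 73.0, 66.8, 73.5 and 74.1 CPM in Ino80cKO libraries 1 to 5, against 98.9, 95.2, 106, 90.8 and 121 CPM in Ino80WT libraries 1 to 5. These groups did not overlap either, and Orc3 fell 1.41-fold (log2 fold change -0.49 ± 0.08, adjusted p = 0.000507). Orc5 fell 1.33-fold (log2 fold change -0.41 ± 0.07, adjusted p = 0.000601), and Orc4 did not pass (log2 fold change -0.17 ± 0.08, adjusted p = 0.0793). Orc1, the ATPase subunit whose level follows the cell cycle in human cells, did not pass (log2 fold change 0.12 ± 0.08, adjusted p = 0.239), but had adjusted p = 0.0191 on the higher side by library totals. Orc6 was at 0.05 (adjusted p = 0.662). A ratio of counts within a library needs no scaling between libraries. Counts of Orc2 per count of Orc1 were 3.09 ± 0.136 in Ino80cKO and 4.60 ± 0.544 in Ino80WT, without overlap. Pairs for such ratios were chosen after their values were seen, so these are given with no test. Exon bases of Orc2 overlap Nif3l1 on the other strand, and those of Orc4, Orc5 and Orc6 overlap other counted genes, so part of their counts is uncertain.

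Of the licensing factors, the inhibitor moved and the loaders did not pass. Gmnn (chr13:24751845-24761923, minus strand), which codes for geminin, had 36.9, 34.4, 27.2, 32.2 and 36.6 CPM in Ino80cKO libraries 1 to 5, against 55.1, 44.2, 52.4, 46.7 and 53.7 CPM in Ino80WT libraries 1 to 5. Its groups did not overlap, with Ino80cKO 3 lowest, and it fell 1.51-fold (log2 fold change -0.59 ± 0.10, adjusted p = 0.000482). Cdc6 (log2 fold change 0.18 ± 0.12, adjusted p = 0.243) and Cdt1 (log2 fold change 0.17 ± 0.14, adjusted p = 0.339) were on the higher side without passing. Cdc6 had adjusted p = 0.0247 by library totals.

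The 6 subunits of the MCM2-7 ring, which unwinds DNA at the fork, split into 2 higher, 2 lower and 2 that did not pass, with a median log2 fold change of 0.05 (0.22 by library totals). Mcm7 (chr5:138164583-138172422, minus strand) had 176, 179, 146, 171 and 185 CPM in Ino80cKO libraries 1 to 5, against 245, 242, 267, 222 and 236 CPM in Ino80WT libraries 1 to 5. All Ino80cKO libraries lay below all Ino80WT libraries, and Mcm7 fell 1.41-fold (log2 fold change -0.50 ± 0.08, adjusted p = 0.000355). Mcm5 (chr8:75109569-75128439, plus strand) ranged over 150.0 to 178 CPM in Ino80cKO and 117 to 149.9 CPM in Ino80WT, where the ranges all but touch, and was 1.25-fold higher (log2 fold change 0.32 ± 0.08, adjusted p = 0.00542). Mcm4 was 1.23-fold higher (log2 fold change 0.30 ± 0.07, adjusted p = 0.00473), again without overlap between 93.1 to 113 CPM in Ino80cKO and 78.1 to 87.1 CPM in Ino80WT. Mcm6 was slightly lower (log2 fold change -0.19 ± 0.07, adjusted p = 0.0368), with adjusted p = 0.917 by library totals. That call held in 2 of 18 alternatives, without Ino80WT 4 and without Ino80cKO 5, and leaving out any other library gave adjusted p between 0.0588 and 0.1504. Mcm2 (chr6:88883474-88898780, minus strand) had 105, 106, 93.5, 92.0 and 120.3 CPM in Ino80cKO libraries 1 to 5, against 102, 98.5, 96.2, 112 and 88.2 CPM in Ino80WT libraries 1 to 5. The groups overlapped widely, and the difference did not pass (log2 fold change 0.06 ± 0.09, adjusted p = 0.621; fold within 0.910 to 1.19 at 95% confidence). Nor did Mcm3 pass (log2 fold change 0.04 ± 0.08, adjusted p = 0.738). Counts of Mcm7 per count of Mcm5 were 1.05 ± 0.0654 in Ino80cKO and 1.86 ± 0.204 in Ino80WT (SD, n = 5 each), without overlap. Part of the exon bases of Mcm7 is shared with Ap4m1 and Cops6 on the other strand and with 2 microRNA genes, and where counting ignored strand their reads cannot be told apart.

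**Figure D3:**
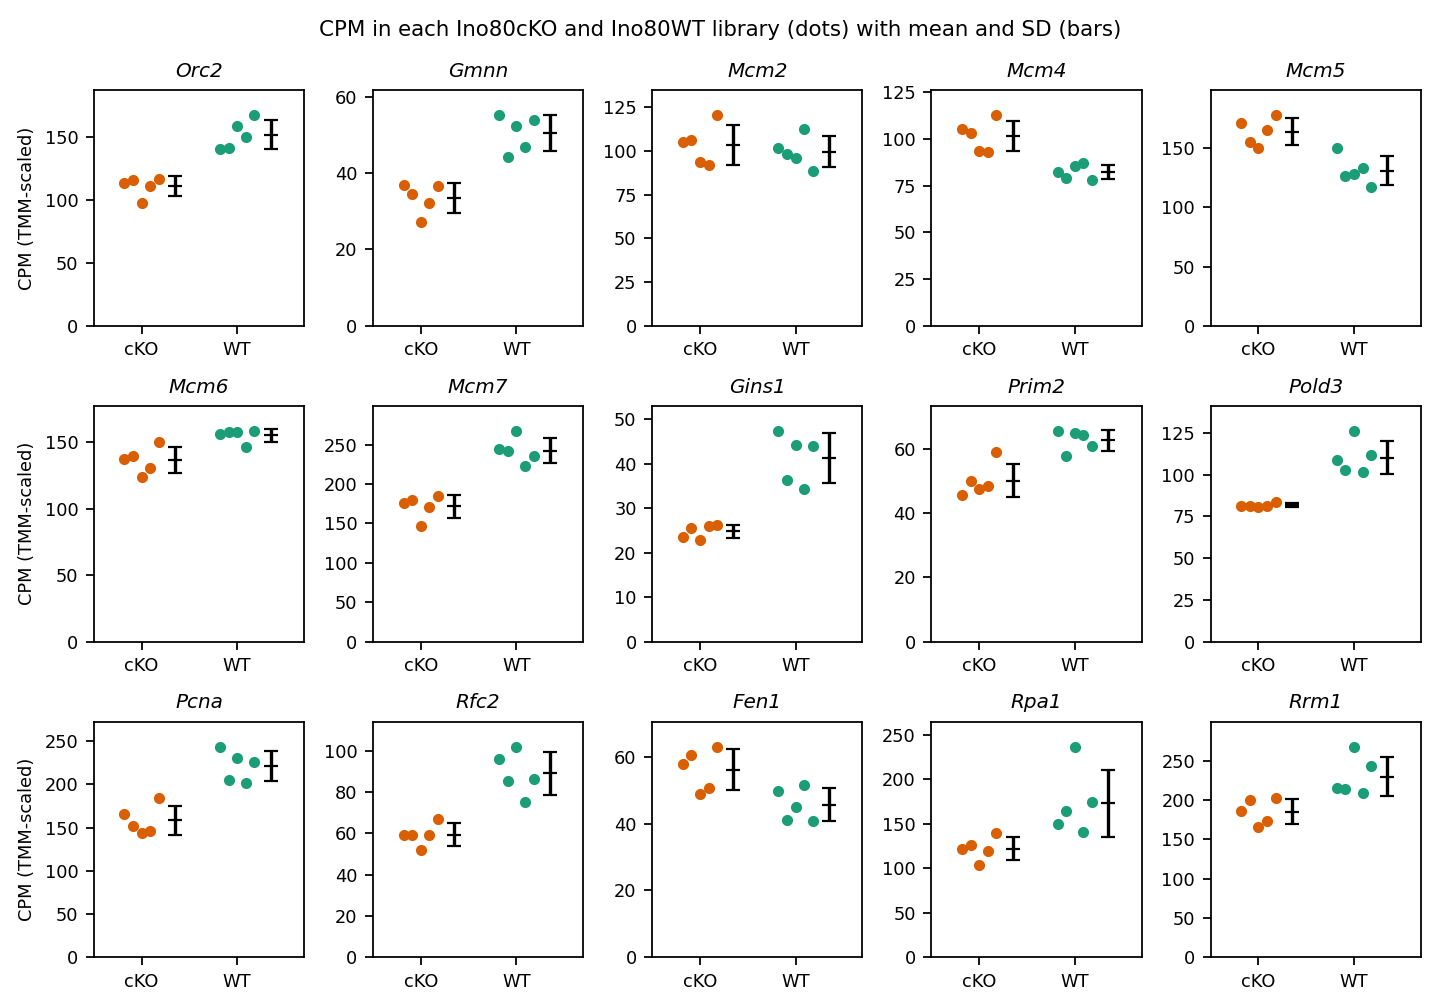
Level in CPM (vertical axes, from 0) of 15 of the genes in each library; Ino80cKO dots lie left and Ino80WT dots right in each panel, with mean and SD as bars, n = 5. Gins1 and Pold3 show tight Ino80cKO dots below all Ino80WT dots, while Mcm4 and Mcm5 lie higher in Ino80cKO and Mcm2 overlaps.

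Helicase activation held the largest fall. All 7 of its genes had a negative log2 fold change, of which 4 passed, while by library totals the values of Mcm10, Cdc45 and Gins3 were above 0. Gins1 (chr2:150905400-150931280, plus strand), a subunit of the GINS complex, had 23.5, 25.6, 22.9, 25.9 and 26.1 CPM in Ino80cKO libraries 1 to 5, against 47.3, 36.3, 44.2, 34.3 and 44.0 CPM in Ino80WT libraries 1 to 5. Every Ino80cKO library lay below every Ino80WT library, and the fall was 1.66-fold (log2 fold change -0.73 ± 0.10, adjusted p = 0.000140). Gins2 and Gins4 fell 1.31-fold (log2 fold change -0.38 ± 0.08, adjusted p = 0.00191) and 1.28-fold (log2 fold change -0.36 ± 0.08, adjusted p = 0.00268), but Gins3, the remaining subunit, did not pass (log2 fold change -0.08 ± 0.09, adjusted p = 0.484). Gins4 ranged over 42.1 to 42.7 CPM in Ino80cKO and 46.4 to 59.8 CPM in Ino80WT, a narrow band beside a wide one. Counts of Gins1 per count of Gins3 were 1.39 ± 0.162 in Ino80cKO and 2.16 ± 0.252 in Ino80WT, without overlap. Of the 4097 exon bases of Gins2, 2758 overlap Gse1 on the other strand, so its count is uncertain. Cdc7, the kinase that phosphorylates the ring, was lower (log2 fold change -0.22 ± 0.07, adjusted p = 0.0192). Its call was lost in 6 of 18 alternatives, among them library totals (adjusted p = 0.589) and leaving out Ino80cKO 3 (adjusted p = 0.0822). Cdc45 (log2 fold change -0.11 ± 0.07, adjusted p = 0.243) and Mcm10 (log2 fold change -0.14 ± 0.09, adjusted p = 0.202), which join the helicase as it is activated, did not pass.

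Polymerase alpha-primase, which starts each new strand with an RNA-DNA primer, had 2 of 4 subunits lower. Prim2 (chr1:33453810-33669795, minus strand), the large primase subunit, had 45.7, 50.1, 47.8, 48.4 and 59.1 CPM in Ino80cKO libraries 1 to 5, against 65.7, 58.0, 65.1, 64.6 and 61.1 CPM in Ino80WT libraries 1 to 5. Ino80cKO 5 overlapped the Ino80WT range and the other Ino80cKO libraries lay below it, and Prim2 fell 1.25-fold (log2 fold change -0.32 ± 0.08, adjusted p = 0.00576), with adjusted p = 0.143 by library totals. Pola2 was also lower (log2 fold change -0.23 ± 0.09, adjusted p = 0.0452), a call kept in 3 of 18 alternatives, without Ino80WT 4, Ino80WT 5 or Ino80cKO 5. Leaving out any other library gave adjusted p between 0.0638 and 0.148. Pola1, the catalytic subunit and the single X-linked member, was on the higher side (log2 fold change 0.24 ± 0.10, adjusted p = 0.0669) and passed in 5 alternatives, library totals among them (adjusted p = 0.00876), and Prim1 did not pass (log2 fold change -0.20 ± 0.10, adjusted p = 0.106). Pola2 and Mcm6 lay just inside the threshold and Pola1 and Rfc1 just outside it.

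Of polymerase delta, which makes the lagging strand, all 3 listed subunits were lower, and of polymerase epsilon, which makes the leading strand, neither of 2 passed. Pold3 (chr7:100082111-100121565, minus strand), an accessory delta subunit, had 81.2, 81.1, 80.6, 81.2 and 83.7 CPM in Ino80cKO libraries 1 to 5, against 109, 103, 126, 102 and 112 CPM in Ino80WT libraries 1 to 5. The Ino80cKO libraries sat close together below the Ino80WT range, and Pold3 fell 1.35-fold (log2 fold change -0.43 ± 0.07, adjusted p = 0.000394). Pold2 fell 1.34-fold (log2 fold change -0.42 ± 0.11, adjusted p = 0.00906) and the catalytic Pold1 1.23-fold (log2 fold change -0.30 ± 0.09, adjusted p = 0.0129). By library totals Pold3 kept its call and Pold1 (adjusted p = 0.2497) and Pold2 (adjusted p = 0.0682) did not. Without Ino80WT 1 and 2 the log2 fold changes of Pold1 and Pold2 were -0.16 (adjusted p = 0.1802) and -0.25 (adjusted p = 0.1005). Pole, the catalytic epsilon subunit, was at 211 ± 11.4 CPM in Ino80cKO and 207 ± 23.6 CPM in Ino80WT (log2 fold change 0.03 ± 0.09, adjusted p = 0.819; fold within 0.896 to 1.16 at 95% confidence), and Pole2 at 0.12 (adjusted p = 0.420). Pole3 and Pole4, histone-fold subunits of epsilon outside the 45, were lower (log2 fold change -0.38 ± 0.08, adjusted p = 0.00189 and log2 fold change -0.34 ± 0.07, adjusted p = 0.00126, named after their values were seen). Pold4, a small delta subunit also outside the 45, did not pass (log2 fold change -0.09 ± 0.17, adjusted p = 0.693), and no difference between the delta and epsilon genes was tested.

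Of the 6 genes of the clamp and its loader, 4 were lower with TMM scaling. Pcna (chr2:132249162-132253314, minus strand), the ring that tethers polymerases to DNA, had 165, 152, 144, 146 and 184 CPM in Ino80cKO libraries 1 to 5, against 243, 205, 230.0, 201 and 225 CPM in Ino80WT libraries 1 to 5. The groups did not overlap, with Ino80cKO 5 nearest to the Ino80WT range, and Pcna fell 1.40-fold (log2 fold change -0.48 ± 0.09, adjusted p = 0.000805). Among loader subunits Rfc2 (chr5:134581366-134601805, plus strand) moved most. It had 59.1, 59.4, 51.8, 59.1 and 67.2 CPM in Ino80cKO libraries 1 to 5, against 96.2, 85.4, 102, 75.1 and 86.5 CPM in Ino80WT libraries 1 to 5, with no overlap, and was lower (log2 fold change -0.59 ± 0.09, adjusted p = 0.000388). Rfc4 fell 1.41-fold (log2 fold change -0.49 ± 0.10, adjusted p = 0.00237) and Rfc3 1.21-fold (log2 fold change -0.27 ± 0.08, adjusted p = 0.0136), the second with adjusted p = 0.357 by library totals. Rfc1, the large subunit, did not pass (log2 fold change -0.18 ± 0.08, adjusted p = 0.0743), nor did Rfc5 (log2 fold change 0.12 ± 0.09, adjusted p = 0.271). By library totals Rfc5 passed on the higher side (log2 fold change 0.30, adjusted p = 0.0193). Rfc2 shares exon bases with Lat2, Rfc4 with Eif4a2 and Rfc5 with Wsb2, each on the other strand. The annotation holds pseudogenes named after Pcna, which have no row of their own in the files, and one named after Tyms, which has a row, so reads of Pcna or Tyms and of these copies may not be told apart.

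Okazaki fragments are trimmed by the nuclease FEN1 and sealed by the ligase LIG1. Fen1 (chr19:10199132-10204169, minus strand) had 57.8, 60.5, 49.0, 50.8 and 63.0 CPM in Ino80cKO libraries 1 to 5, against 49.8, 41.1, 45.1, 51.5 and 40.9 CPM in Ino80WT libraries 1 to 5. Its groups overlapped, with 3 Ino80cKO libraries above the Ino80WT range, and it was 1.23-fold higher (log2 fold change 0.30 ± 0.10, adjusted p = 0.0222; exact permutation p = 0.0397). That call was lost in 5 of 18 alternatives, with adjusted p between 0.0505 and 0.0582 without Ino80WT 2, Ino80WT 5, Ino80cKO 2 or Ino80cKO 5. Exon bases of Fen1 overlap Tmem258 on the other strand. Lig1 did not pass (log2 fold change 0.08 ± 0.08, adjusted p = 0.450), but had adjusted p = 0.0264 on the higher side by library totals. RPA coats single-stranded DNA, and 1 of its 3 subunits was lower. Rpa1 (chr11:75298166-75348324, minus strand) had 121, 126, 104, 119.7 and 139 CPM in Ino80cKO libraries 1 to 5, against 149, 164, 236, 141 and 174 CPM in Ino80WT libraries 1 to 5. Ino80WT 3 stood highest and the groups did not overlap, and Rpa1 fell 1.42-fold (log2 fold change -0.50 ± 0.13, adjusted p = 0.00789). Without Ino80WT 3 and Ino80cKO 3, its log2 fold change was -0.29 (adjusted p = 0.0200). Rpa2 (log2 fold change -0.12 ± 0.10, adjusted p = 0.344) and Rpa3 (log2 fold change 0.02 ± 0.11, adjusted p = 0.881) did not pass.

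Deoxynucleotides come from ribonucleotide reductase, built from RRM1 and RRM2, and thymidylate from TYMS. Rrm1 (chr7:102441695-102469771, plus strand) had 186, 200.1, 165, 173 and 202 CPM in Ino80cKO libraries 1 to 5, against 215, 215, 268, 208 and 243 CPM in Ino80WT libraries 1 to 5. Without overlap between the groups, Rrm1 fell 1.24-fold (log2 fold change -0.31 ± 0.09, adjusted p = 0.0130), with adjusted p = 0.176 by library totals and 0.0502 without Ino80cKO 3. Rrm2, the subunit that limits the enzyme in cycling cells, was on the higher side and did not pass (log2 fold change 0.19 ± 0.09, adjusted p = 0.0861), though it passed on the higher side without Ino80WT 3 (adjusted p = 0.0421) or Ino80cKO 3 (adjusted p = 0.0336) and by library totals (adjusted p = 0.00389). Counts of Rrm1 per count of Rrm2 were 3.45 ± 0.0931 in Ino80cKO and 4.89 ± 0.578 in Ino80WT, without overlap. Tyms ranged over 12.3 to 15.5 CPM in Ino80cKO and 10.2 to 11.9 CPM in Ino80WT and was 1.22-fold higher (log2 fold change 0.28 ± 0.10, adjusted p = 0.0297), a call lost in 7 of 18 alternatives. Those include leaving out Ino80WT 2, Ino80WT 3, Ino80WT 5, Ino80cKO 2 or Ino80cKO 3, with adjusted p between 0.0551 and 0.0659.

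Per length, Pcna stood highest. Divided by the exon length of the gene in kilobases (GENCODE M21, all isoforms joined), mean CPM of Pcna was 65.9 in Ino80cKO and 92.1 in Ino80WT, the highest of the 45 in both groups. Mcm7 held the second place in Ino80WT, with 38.8 in Ino80cKO and 54.8 in Ino80WT, and Mcm5 the second in Ino80cKO, with 41.1 in Ino80cKO and 32.8 in Ino80WT. At the low end stood Tyms, with 2.21 in Ino80cKO and 1.82 in Ino80WT, and Pola1, with 2.65 in Ino80cKO and 2.25 in Ino80WT. Joined isoforms overstate the length of genes whose long isoforms are unused here, so neighbours in this order are not told apart.

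**Figure D4:**
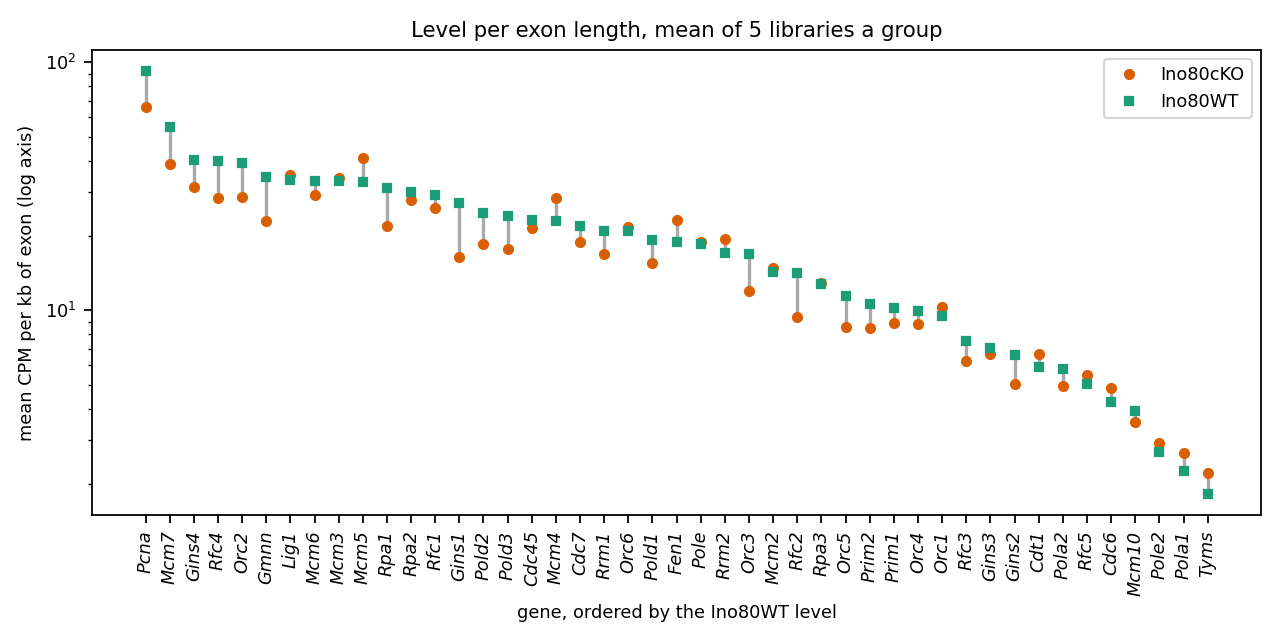
Mean CPM per kb of exon (vertical log axis) of the 45 genes, ordered by the Ino80WT level (horizontal axis); circles are Ino80cKO, squares Ino80WT, each the mean of 5 libraries, and grey lines join the pair. Pcna stands at the top in both groups, and Mcm4, Mcm5 and Fen1 are among the genes with the circle above the square.

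Libraries differed within each group. Ino80cKO 3 held the lowest level of 23 of the 45 genes, and Ino80WT 1 the highest of 14. The summed level of the members was 2981 CPM in Ino80cKO 3 and 3167 to 3549 CPM in the other Ino80cKO libraries, against 3596 to 3979 CPM in Ino80WT. That separation depended on the TMM scaling. As unscaled shares of gene counts the groups overlapped, with 0.315% to 0.377% in Ino80cKO and 0.336% to 0.363% in Ino80WT. The lowest share was in Ino80cKO 3 and the highest in Ino80cKO 5. Ino80cKO 3 also had the lowest and Ino80WT 3 the highest sum of pachytene markers. Ino80WT 1 and 2 held the largest shares of the rRNA precursor Rn45s, 7.08% and 4.66% of gene counts, with 1.60% to 3.76% in the other libraries. Without Ino80WT 1 and 2, 15 members were lower (33.3%, against 24.0% of all genes) and 4 higher (8.89%, against 22.2%). Without Ino80WT 3 and Ino80cKO 3 the counts were again 15 and 4, against 22.0% of all genes lower and 12.5% higher.

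**Figure D5:**
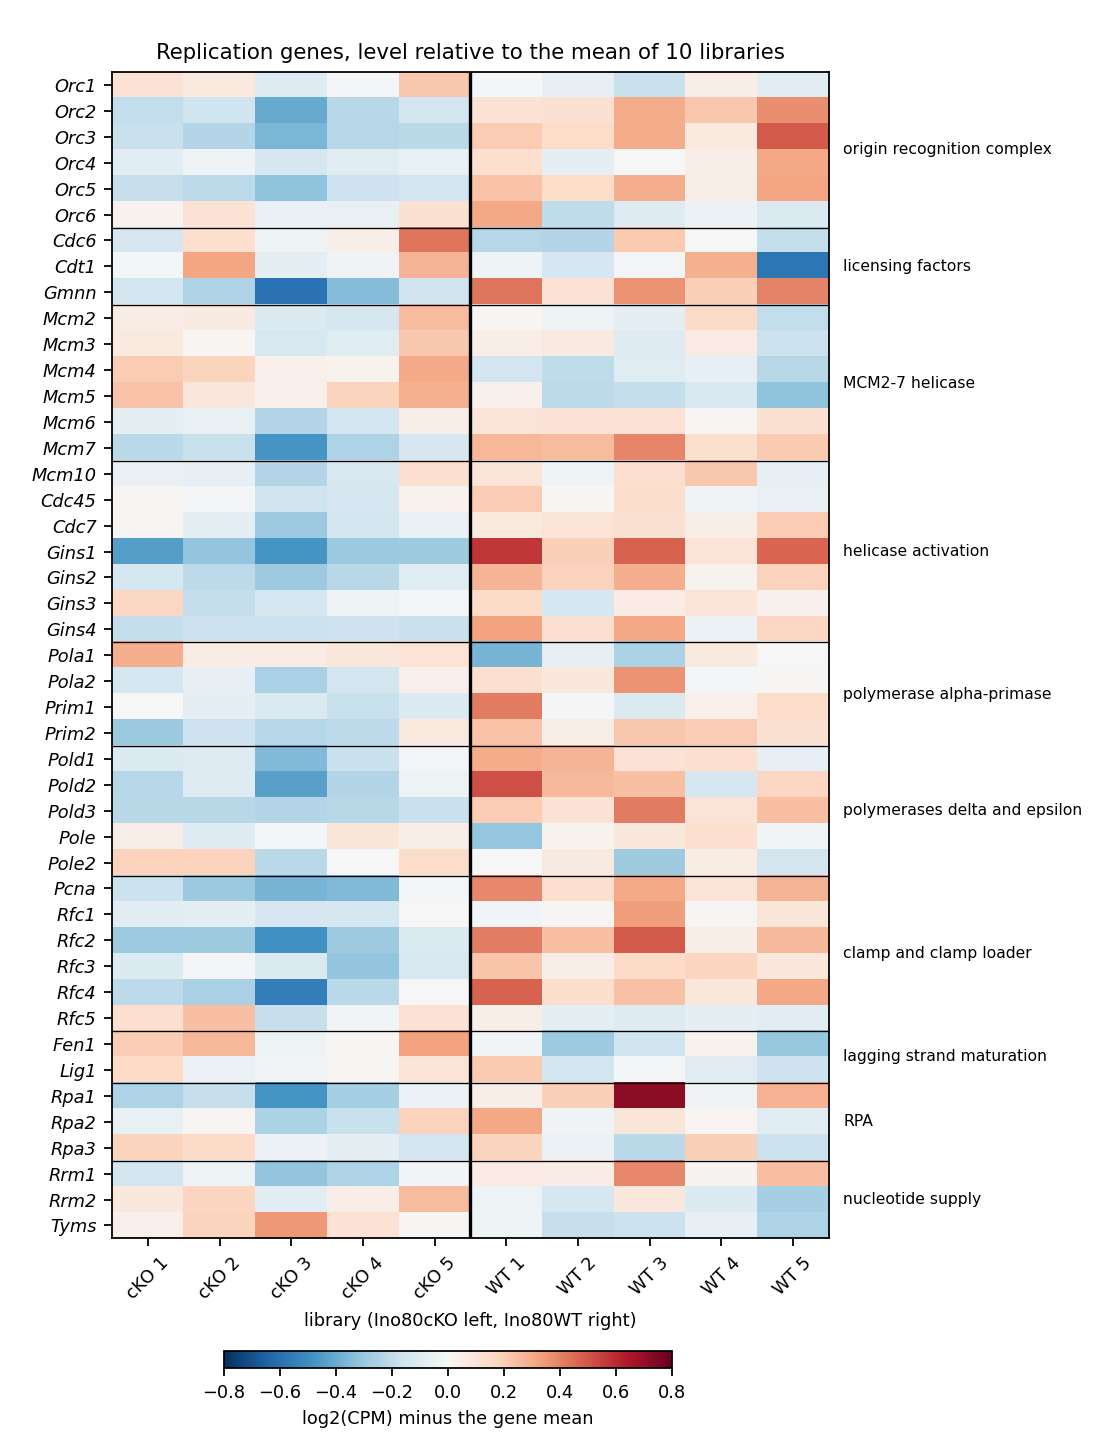
Level of each of the 45 genes (rows, grouped by role) in each library (columns, Ino80cKO left and Ino80WT right), as log2 CPM minus the mean of that gene over the 10 libraries; red is above and blue below it. Of the 45 genes, 28 have a log2 fold change below 0 and 17 above 0, with Mcm4, Mcm5, Fen1 and Tyms among the 17. Ino80cKO 3 holds the lowest level of 23 genes.

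Of 50 other genes of replication, 20 were lower (40.0%, against 27.6% of all genes) and 6 higher (12.0%, against 18.3%), with a median of -0.14. By library totals 9 were lower and 13 higher, where 19.2% of all genes were lower and 35.9% higher. The genes with the smallest adjusted p among the lower ones were Rnaseh2c, a subunit of RNase H2 (log2 fold change -0.83 ± 0.11, adjusted p = 0.000128), Dut, which removes dUTP (log2 fold change -0.86 ± 0.12, adjusted p = 0.000157), Dtymk, the thymidylate kinase (log2 fold change -0.59 ± 0.09, adjusted p = 0.000252), Topbp1, which helps to activate the helicase (log2 fold change -0.39 ± 0.07, adjusted p = 0.000827), and the ORC partner Lrwd1 (log2 fold change -0.82 ± 0.15, adjusted p = 0.000898). Dut was at 51.0 ± 7.87 CPM in Ino80cKO and 92.5 ± 12.1 CPM in Ino80WT and fell 1.81-fold. Among the higher ones were Mcmbp, which binds MCM subunits (log2 fold change 0.32 ± 0.07, adjusted p = 0.00230), Atad5, which unloads PCNA (log2 fold change 0.43 ± 0.09, adjusted p = 0.00258), the helicase gene Recql4 (log2 fold change 0.30 ± 0.08, adjusted p = 0.00882), Skp2, which marks cell cycle inhibitors for breakdown (log2 fold change 0.35 ± 0.10, adjusted p = 0.0107) and Rrm2b, the reductase subunit used outside S phase (log2 fold change 0.40 ± 0.12, adjusted p = 0.0163). Dbf4, the partner of the CDC7 kinase, was lower (log2 fold change -0.30 ± 0.07, adjusted p = 0.00541), named after its values were seen.

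The transcription factors that control S-phase genes moved in both directions. Of 20, 5 were higher (25%, against 18.3% of all genes) and 5 lower (25%, against 27.6%), with a median of 0.02 and a mean of -0.03. By library totals 9 were higher and 3 lower, where 35.9% of all genes were higher and 19.2% lower. No test was made of these shares. The activators E2f1 (log2 fold change 0.42 ± 0.10, adjusted p = 0.00432) and E2f3 (log2 fold change 0.42 ± 0.10, adjusted p = 0.00520) and the partner Tfdp2 (log2 fold change 0.36 ± 0.07, adjusted p = 0.00151) were higher, as were the pocket protein gene Rbl2 (log2 fold change 0.42 ± 0.12, adjusted p = 0.0124) and Mybl2 (log2 fold change 0.26 ± 0.08, adjusted p = 0.0231). Lower were Lin9 (log2 fold change -0.62 ± 0.07, adjusted p = 8.44e-05) and Lin52 (log2 fold change -0.47 ± 0.09, adjusted p = 0.00153), of the DREAM and MuvB complexes, the E2F partner Tfdp1 (log2 fold change -0.27 ± 0.06, adjusted p = 0.00503), the pocket protein gene Rbl1 (log2 fold change -0.45 ± 0.11, adjusted p = 0.00543) and Rbbp4 (log2 fold change -0.28 ± 0.07, adjusted p = 0.00753). E2f1 was at 28.7 ± 2.02 CPM in Ino80cKO and 21.4 ± 2.71 CPM in Ino80WT, without overlap, and Lin9 at 48.7 ± 2.23 CPM in Ino80cKO and 74.7 ± 6.41 CPM in Ino80WT, also without overlap.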

How the data were processed

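PolyA RNA libraries, 5 labelled Ino80cKO and 5 labelled Ino80WT, were compared. Each library has 1 deposited table, in which the authors gave the read count of every gene as a whole number. TopHat2, HTSeq, DESeq2 and mm10 are named in the submitters' processing notes; their roles, the annotation and the strand setting are not stated there. The 5 rows that name no gene held 35.5% to 44.0% of reads and were left out. The test was edgeR's (version 4.0.16, under R 4.3.3). Its filterByExpr (minimum count 10, minimum total 15) kept 15265 genes, libraries were scaled by TMM, and a robust quasi-likelihood model held genotype alone. SE is the log2 fold change divided by the square root of F. The fit was tested on simulated data. A floor of 3 counts is 0.127 to 0.179 CPM, for counting error only. Between any pair of libraries chi-square over genes was at least 8.93 per degree of freedom, so no library was counted as a duplicate. Alternatives were a replicate block, DESeq2 1.42.0, its size factors in edgeR, library totals, no filter, a stricter filter (CPM above 1 in at least 5 libraries), and leaving out each library or either of 2 pairs of libraries. The members, gene lists and tests were chosen with earlier results of these data known. In each role, the genes with the smallest adjusted p and the largest fold change, and Pcna and Mcm2, are given in every library; of the other lists, up to 5 genes each way with the smallest adjusted p are named. The promoters shown are those of the lower and the higher member with the smallest adjusted p among members with E2F letters before the start. Motif searches and count ratios were added after the values were seen.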

Additional observations from a re-analysis of the deposited data

Results flagged for a closer look

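In 5 of 90 sets of 5 libraries (45 genes, each in Ino80cKO and in Ino80WT), 1 library stood apart by Dixon's ratio above 0.71, and chance gives about 5% of sets. They were Orc6 at 64.6 CPM in Ino80WT 1, against 45.3 to 50.5 CPM in the other Ino80WT libraries, Mcm6 at 147 CPM in Ino80WT 4, against 156 to 158 CPM, Pola1 at 26.2 CPM in Ino80cKO 1, against 22.3 to 23.1 CPM in the other Ino80cKO libraries, Pold3 at 83.7 CPM in Ino80cKO 5, against 80.6 to 81.2 CPM, and Rfc5 at 25.2 CPM in Ino80WT 1, against 22.7 to 23.2 CPM.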

How the results depend on the processing

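Of the 21 members lower, 13 kept their call in all 18 alternatives, and of the 4 higher, 2 did. Library totals as the scaling gave 10 members higher and 13 lower (median 0.000142; MCM2-7 median 0.218), 13 other replication genes higher and 9 lower, 9 S-phase control genes higher and 3 lower, and 5484 of all genes higher and 2937 lower, against 2793 and 4220 with TMM. With the replicate number as a block, 2 members were higher and 17 lower (4.44% and 37.8%, against 12.6% and 23.4% of all genes). The block changed the calls of Mcm6, Cdc7, Pola2, Rfc3, Fen1 and Tyms. Same-numbered libraries had correlations of their deviations from -0.47 to 0.20, and not every Ino80cKO library correlated best with its own number, so the number names a library and pairs none. Leaving out 1 library gave 2 to 5 members higher (2 without Ino80WT 2, Ino80WT 5 or Ino80cKO 2) and 17 to 21 lower, with a MCM2-7 median of -0.00970 to 0.104. Without Ino80WT 2 Orc4 passed as lower (adjusted p = 0.0419), as did Prim1 without Ino80WT 3 (adjusted p = 0.0461), and Pola1 without Ino80WT 4 (adjusted p = 0.0346) and Lig1 without Ino80WT 1 (adjusted p = 0.0469) passed as higher. The sign of the log2 fold change turned, with no call on either side, for Orc4 (0.000142), Mcm10 (0.0326), Cdc45 (0.0690), Gins3 (0.0930), Rfc1 (0.000557) and Rpa2 (0.0584) under library totals. Leaving out 1 library turned it for Mcm2 (-0.00342 to 0.114, below 0 without Ino80cKO 5), Mcm3 (-0.0160 to 0.0942, without Ino80WT 5 or Ino80cKO 5), Pole (-0.0175 to 0.0644, without Ino80WT 1) and Rpa3 (-0.0283 to 0.0931, without Ino80WT 3, Ino80WT 5, Ino80cKO 1 or Ino80cKO 2). The cause was not tested.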

Other observations

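Other genes of dividing cells did not share 1 direction; those named here were chosen from the gene lists after their values were seen. Mki67, whose protein coats mitotic chromosomes, was at 480.4 ± 48.6 CPM in Ino80cKO and 341 ± 70.2 CPM in Ino80WT (log2 fold change 0.49 ± 0.13, adjusted p = 0.0103), higher in Ino80cKO. Ccnd2, a cyclin of spermatogonia, was at 100.2 ± 19.6 CPM in Ino80cKO and 72.5 ± 10.3 CPM in Ino80WT (log2 fold change 0.47 ± 0.13, adjusted p = 0.0133). Uhrf1, which carries DNA methylation through replication, was at 140.5 ± 11.8 CPM in Ino80cKO and 179.7 ± 20.7 CPM in Ino80WT (log2 fold change -0.36 ± 0.09, adjusted p = 0.00642), lower in Ino80cKO. Top2a, the topoisomerase that untangles replicated DNA, was at 648 ± 43.5 CPM in Ino80cKO and 764 ± 59.1 CPM in Ino80WT (log2 fold change -0.24 ± 0.08, adjusted p = 0.0271). Other such genes did not pass, among them Ccna2 (log2 fold change 0.08 ± 0.08, adjusted p = 0.424) and Foxm1 (log2 fold change 0.07 ± 0.10, adjusted p = 0.579). Errors are SD for CPM and SE for log2 fold changes, n = 5 libraries a group.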
